A study of Mus musculus with 7 samples.

Results

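Axon guidance ligands and receptors are the cell-surface and secreted proteins by which a growing axon reads its surroundings, and this account follows their messenger RNA in single neurons. The genes were taken by symbol: the semaphorins of classes 3 to 7, the plexins, the neuropilins, the Eph receptors and ephrins, the Slit and Robo genes, the Unc5 genes, the netrins and netrin-Gs, and Dcc and Neo1. The rule found 72 genes among 45137 gene symbols, of which 37 encode ligands and 35 encode receptors. The table of cell 7 has no row named Ntn3, so 71 of the 72 were named in all 7 tables.

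The libraries came from 7 neurons, 1 library per cell, forming a single group with no treatment and no control. Each cell sat in the stratum oriens/alveus of hippocampal area CA1 in a mouse of the VIP-eGFP strain, in which enhanced green fluorescent protein marks cells that use the Vip gene. Patch-clamp recording in acute slices and biocytin filling came before aspiration, and the study included a cell only if its axon ran on to the subiculum. The labels tie no cell to an animal, so the 7 cells count as 1 sample. No p-value is given, and an SD is the spread between these cells. Aspirated cytoplasm and nucleus were amplified together, so fewer copies of a transcript in the neuron and a smaller share of it drawn into the pipette cannot be told apart.

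As background, semaphorins signal through plexins, and the secreted class 3 members mostly need a neuropilin as well. Ephrins are held in the membrane of one cell and bind Eph receptor tyrosine kinases on another. Slits bind Robo receptors, and netrins bind Dcc and neogenin, which mostly attract, or Unc5 receptors, which repel. In the adult brain many of these genes stay on and are known for roles at synapses and in keeping axons in place.

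Total estimated counts ran from 1052327 to 3398521 per cell. Protein-coding genes named in all tables held as little as 13.1% of TPM (transcripts per 1000000) in cell 6 and as much as 72.3% in cell 7, so equal TPM in different cells are not equal shares of messenger RNA. Cell 7 was quantified on Ensembl transcripts and the other 6 cells on RefSeq transcripts. Vip and Gad1, markers of the labelled identity, were above 1 TPM in 7 of 7 cells. Vip was lowest in cell 4, at 25.3 TPM, and Gad1 in cell 6, at 9.59 TPM. The general neuronal markers Snap25, Syt1, Rbfox3 and Map2 were also above 1 TPM in 7 of 7 cells. The remaining neuronal markers were absent or low in some cells, with Gad2 at 0.218 TPM in cell 7 and the vesicular GABA transporter gene Slc32a1 listed at 0 in cells 6 and 7. Transcripts of other cell types were present as well. The 10 oligodendrocyte markers summed to 113 to 1288 TPM in cells 1 to 6 and to 20793 TPM in cell 7, with 3 to 6 markers above 1 TPM per cell. The 8 microglial markers summed to 1.55 to 1702 TPM, and the 8 astrocyte markers to 2.45 to 778 TPM with Gfap at 0 in all 7 cells. Gja1 made up 618 TPM of the astrocyte sum in cell 1, and S100b 513 TPM in cell 7. The 8 vascular markers summed to 0 to 87.3 TPM, with Cldn5 and Pdgfrb at 0 throughout. Pecam1 was at 83.7 TPM in cell 7 and Rgs5 at 27.4 TPM in cell 4. The 6 pyramidal-cell markers summed to 61.0, 22.3 and 7.73 TPM in cells 2, 5 and 7, and to at most 1.85 TPM in the others, with Neurod1, Tbr1 and Emx1 at 0 throughout. Slc17a7, the vesicular glutamate transporter gene, made up 52.2 TPM of the sum in cell 2, and Neurod6 made up 22.1 TPM in cell 5. The part of these cell types in the levels below was not tested.

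Guidance genes were detected in every cell. In 1 to 3 cells, 39 of the 72 were detected, against 7512 of the 20649 protein-coding genes named in all tables. Detection means a level above 1 TPM. Of the 72 genes, 49 (68.1%) were detected in at least 1 cell, against 55.5% of the 20649 protein-coding genes named in all tables. Detected in at least 4 of 7 cells were 10 of the 72 (13.9%), against 19.1% of the protein-coding genes. None was detected in all 7 cells, against 2.96% of the protein-coding genes. The 10 genes were Ntng1 and Plxna2 in 6 cells, Epha5 and Nrp2 in 5, and Epha6, Epha10, Nrp1, Sema5a, Sema6d and Unc5a in 4. With 1 cell left out and the cutoff kept at 4 cells, the count cannot rise. It was 6 without cell 3, 4 or 6 and 4 without cell 5. Among protein-coding genes the share then also fell, to 14.1%, 14.9%, 16.0% and 12.8%. Of the remainder, 12 genes were detected in 1 cell, 19 in 2 and 8 in 3. Another 23 were detected in no cell, and 14 of these were listed at 0 throughout. Among the 20649 protein-coding genes, 9198 were detected in no cell and 7414 were at 0 throughout.

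**Figure D1:**
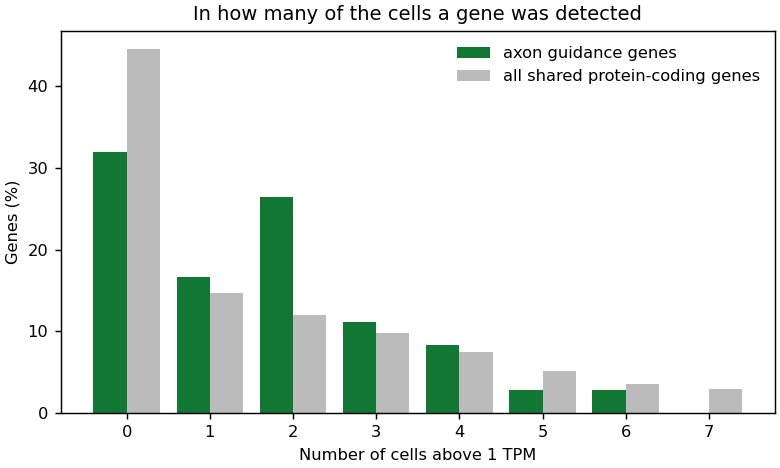
Percent of genes (vertical axis) by the number of cells in which they were above 1 TPM (horizontal axis), for the 72 axon guidance genes (green, left bars) and the 20649 shared protein-coding genes (grey, right bars). Guidance genes stood at 31.9% with no cell, against 44.5% of protein-coding genes, and at 26.4% with 2 cells, against 11.9%.

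Cells 1 to 7 had 10, 26, 17, 16, 29, 13 and 9 guidance genes above 1 TPM. Above 10 TPM in at least 1 cell were 29 of the 72 genes (40.3%), against 42.4% of protein-coding genes. The detected share ran from 12.5% in cell 7 to 40.3% in cell 5, against 14.7% and 32.9% of protein-coding genes in the same cells. Cells 2 and 5, with the most guidance genes, were also those with the highest summed pyramidal-cell markers, whose part in this was not tested. In cell 2, the deepest library, 36.1% of guidance genes were detected, against 39.0% of protein-coding genes. Receptors numbered 5 to 18 per cell and ligands 3 to 11, with a median of 8 for each. When detected, guidance genes were of modest level. The median detected guidance gene stood at 2.61 to 17.9 TPM per cell, below the median detected protein-coding gene of the same cell in 7 of 7 cells (8.12 to 32.4 TPM). Summed, the 72 genes held 230.4, 637, 268, 247, 904, 52.8 and 333 TPM in cells 1 to 7. As a share of protein-coding TPM the sum was 0.268% in cell 5 and 0.0403% to 0.108% in the other cells.

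**Figure D2:**
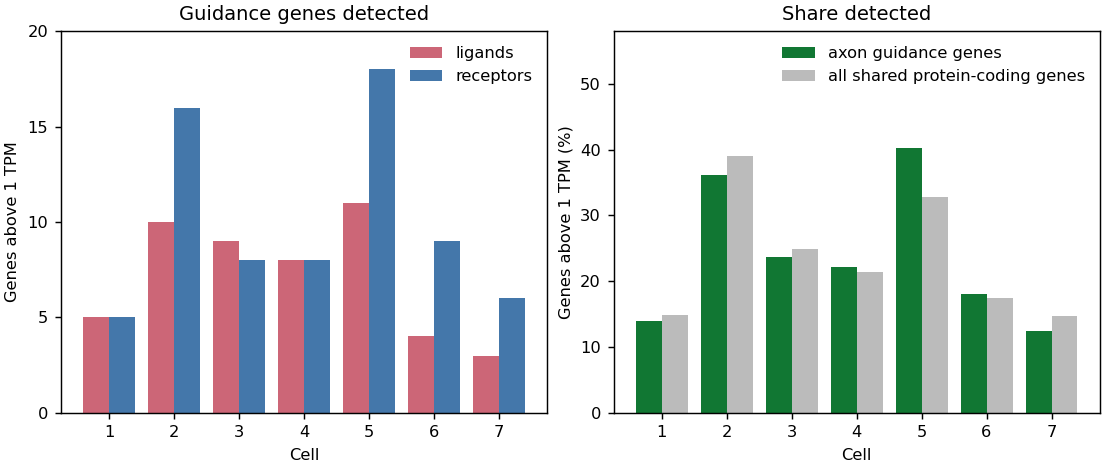
Left, number of ligand (red) and receptor (blue) genes above 1 TPM in each cell. Right, percent of the 72 guidance genes (green, left bars) and of all shared protein-coding genes (grey, right bars) above 1 TPM in each cell. Cells 2 and 5 had the most guidance genes, 26 and 29, and also the largest shares of all protein-coding genes.

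Any pair of cells shared 1 to 15 detected guidance genes, with a median of 6 over the 21 pairs. Relative to all guidance genes detected in either cell of the pair, the overlap was 4.76% to 37.5%, with a median of 20.8%. Over all shared protein-coding genes the same overlap was 24.3% to 54.1%, with a median of 32.1%, and it was above that of the guidance genes in 21 of 21 pairs. The pairs share cells, and detected guidance genes also had a lower median level than detected protein-coding genes, whose part in the lower overlap was not tested. The single most abundant guidance gene was Ephb6 in cell 1, Sema3c in cell 2, Ntng1 in cells 3, 4, 5 and 6, and Epha5 in cell 7. That gene alone held 12.4% to 41.0% of the guidance TPM of its cell.

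**Figure D3:**
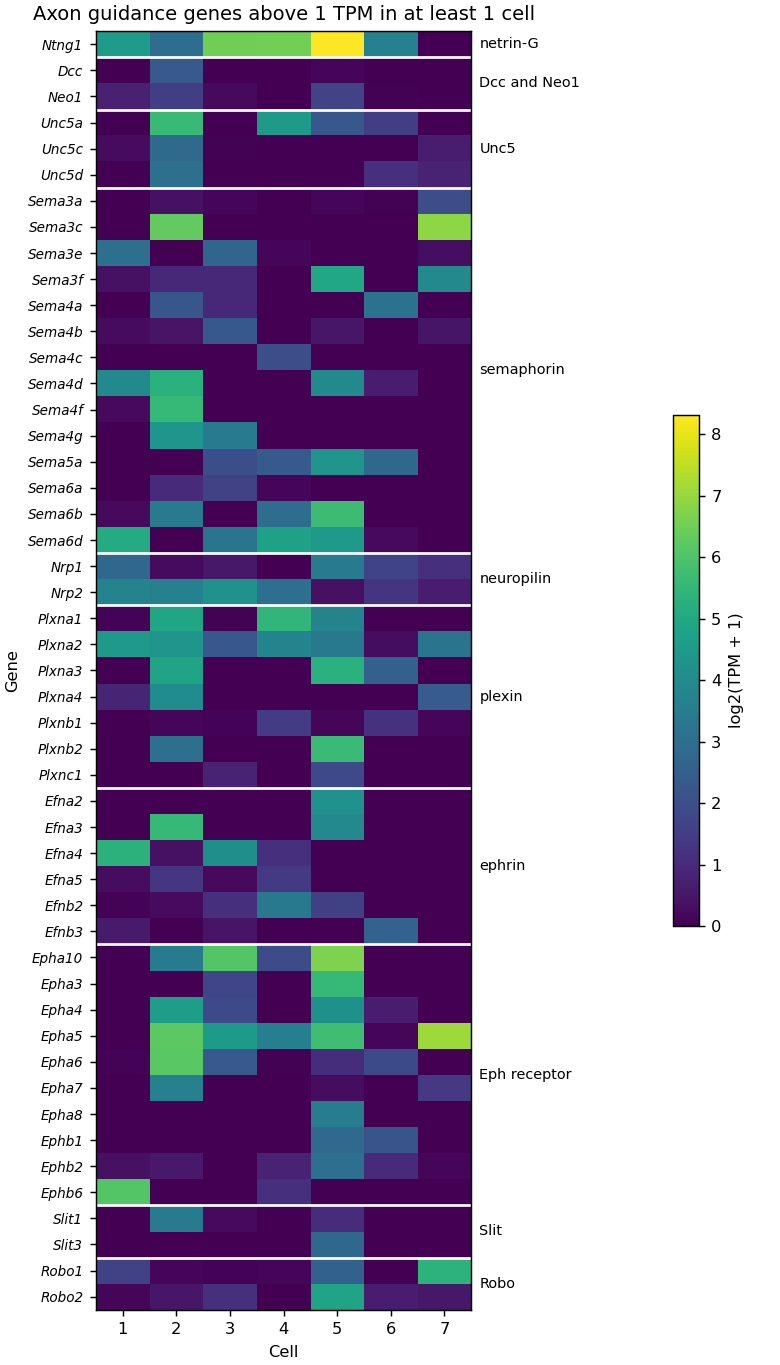
Heat map of log2(TPM + 1) for the 49 guidance genes above 1 TPM in at least 1 cell (rows, grouped by family) in the 7 cells (columns). Ntng1 reaches the highest level, 318 TPM in cell 5, and most rows are bright in 1 to 3 cells.

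Netrin-G1 was the leading ligand gene. Ntng1 encodes a protein tied to the membrane by a lipid anchor, which binds netrin-G ligand proteins rather than the receptors of the classical netrins. Its level was 22.5, 6.79, 91.0, 92.9, 318, 11.6 and 0 TPM in cells 1 to 7. Cells 3, 4 and 5 were high, and cell 7 was the only cell at 0. Its mean log2(TPM + 1) was 4.65 ± 2.77 (SD, n = 7 cells), the highest of the 72 genes. The highest value rested on 3838 estimated counts and the lowest above 0 on 70.0. In cell 7, whose table lists 13 Ntng1 transcripts, 3 counts would have given 0.630 TPM. On the scale of the shared protein-coding genes alone cell 5 was again highest, at 944 TPM, followed by cell 3 at 351. Transcript choice varied, in that the leading one of 13 listed RefSeq transcripts held 100% of Ntng1 TPM in cell 2 and 37.1% in cell 5. Ntng1 lies on chromosome 3 (109780040 to 110144011, minus strand) of the mm10 assembly. Its partner gene Lrrc4c, which encodes netrin-G ligand 1, was at 0, 57.3, 0.235, 0.186, 0.189, 0.0448 and 3.51 TPM in cells 1 to 7. Only in cell 2 were both genes above 1 TPM. Ntng2, the other netrin-G gene, was listed at 0 in all 7 cells, where 3 counts would give 0.501 to 1.06 TPM.

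The classical netrins were not seen, while some of their receptors were. None of Ntn1, Ntn3, Ntn4 and Ntn5 passed 1 TPM, and the highest value of the 4 was 0.459 TPM for Ntn3 in cell 1. Dcc, which encodes the attractive netrin receptor, was at 3.97 TPM in cell 2 and at most 0.116 TPM elsewhere. Neo1, which encodes neogenin, a receptor for netrins and for repulsive guidance molecules, reached 1.91 TPM in cell 2 and 2.25 TPM in cell 5. Unc5a, which encodes a repulsive netrin receptor, was the main gene of its family. Its level was 0, 48.7, 0, 20.9, 3.80, 1.93 and 0 TPM in cells 1 to 7, highest in cells 2 and 4. In cell 2 Unc5c reached 6.39 TPM and Unc5d 7.42 TPM, and Unc5d stood at 1.22 TPM in cell 6. Unc5b, known from blood vessels, was at 0 in all 7 cells. Cell 2 was therefore the cell with Dcc, Neo1, Unc5a, Unc5c and Unc5d all above 1 TPM.

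Of the 20 semaphorin genes, 14 were detected in at least 1 cell, against 55.5% of protein-coding genes, with 2 to 6 per cell. Summed over the family in TPM, cell 2 was highest with 201 TPM and cell 6 lowest with 14.3. The first place depended on the scale. Shared protein-coding genes made up 33.7% of the TPM of cell 5, where the family summed to 137 TPM. For cell 2 that figure was 59.0%. Relative to protein-coding TPM, cell 5 was therefore above cell 2. The most widely detected were transmembrane members that bind plexins directly. Sema6d was at 33.7, 0, 8.37, 26.0, 21.8, 0.158 and 0 TPM in cells 1 to 7. Sema5a was at 0, 0, 2.99, 4.13, 19.3, 5.81 and 0 TPM in cells 1 to 7. Cells 3, 4 and 5 thus had both genes. The related Sema6b was at 0.152, 9.83, 0, 6.82, 50.7, 0 and 0 TPM in cells 1 to 7, highest in cell 5. Sema4d, which encodes a ligand of B-class plexins that oligodendrocytes also make, was at 14.5, 38.4, 0, 0, 14.7, 0.561 and 0 TPM in cells 1 to 7. The oligodendrocyte markers summed to 1221, 174 and 1288 TPM in cells 1, 2 and 5, where it was detected, and to 20793 TPM in cell 7, where it was listed at 0. For its zeros, 3 counts would give 0.210 to 2.12 TPM, and the part of oligodendrocytes in its level was not tested. In cells 2 and 5, 34.0% and 48.2% of Sema4d TPM lay on coding transcripts. Sema4f, another transmembrane member, was at 0.155, 46.9, 0, 0, 0, 0 and 0 TPM in cells 1 to 7, so cell 2 stood alone. Sema4g reached 19.9 TPM in cell 2, none of it on coding transcripts (0%), and 9.50 TPM in cell 3 with 12.5% on them. Lower in the family, Sema4a reached 3.72 TPM in cell 2 and 7.75 in cell 6, Sema4b 3.93 in cell 3, Sema4c 3.01 in cell 4 and Sema6a 2.02 in cell 3. Sema5b, Sema6c and Sema7a stayed at or below 0.570 TPM.

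Among the secreted class 3 semaphorins, each detected gene was above 1 TPM in 1 or 2 cells. Sema3c, a ligand of both neuropilins, was at 0, 79.1, 0, 0, 0, 0 and 119.8 TPM in cells 1 to 7, on 864 counts in cell 2 and 1574 in cell 7. In the other 5 cells 3 counts would give 0.177 to 0.372 TPM. Sema3f, which binds neuropilin-2, was at 0.282, 0.912, 0.965, 0, 30.1, 0 and 14.2 TPM in cells 1 to 7, with cells 5 and 7 high. Sema3e passed 1 TPM in cells 1 and 3, with 7.44 and 5.59 TPM. Sema3a, the classical repellent, passed 1 TPM in cell 7 alone, at 2.94 TPM. Sema3d was at most 0.176 TPM, and Sema3b and Sema3g were at 0 in all 7 cells.

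The 2 high values in cell 7 were assigned to transcripts of another type than those in cells 2 and 5. There, 99.3% of Sema3c TPM and 100% of Sema3f TPM lay on a transcript that the GENCODE annotation types as a retained intron, and the coding transcripts of both genes were at 0. In cell 2, all Sema3c TPM lay on the single RefSeq transcript listed, a coding one, so no other type could appear there. The Sema3c transcript of cell 7 is 4075 bases long and 441 of them are intronic to every coding transcript. The Sema3f transcript is 1084 bases long, with 608 such bases. The splice junctions that these transcripts read through are shown because they mark where the annotated RNA departs from the coding messenger. Exon of the coding transcripts is in lower case, and sequence intronic to every coding transcript is in capitals. The sequences are from GENCODE M21 on mm10. The first covers chr5:17694613-17694672 (plus strand) and ends an intron, and the second covers chr9:107684520-107684579 (minus strand) and begins one.
Sema3c: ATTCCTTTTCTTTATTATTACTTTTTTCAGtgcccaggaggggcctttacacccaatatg
Sema3f: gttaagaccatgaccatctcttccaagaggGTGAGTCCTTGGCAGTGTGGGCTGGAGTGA
The intron of Sema3c ends in AG and that of Sema3f starts with GT, the usual bases of a splice site. Of the 9 guidance genes above 1 TPM in cell 7, 4 had under 50% of their TPM on coding transcripts, against 27.5% of the protein-coding genes detected in that cell. The same share was 3.86% to 5.34% of protein-coding genes in cells 1 to 6, whose RefSeq tables list other transcripts, so the cell and the index cannot be told apart. Counting coding transcripts alone, cell 7 kept 5 guidance genes above 1 TPM.

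**Figure D4:**
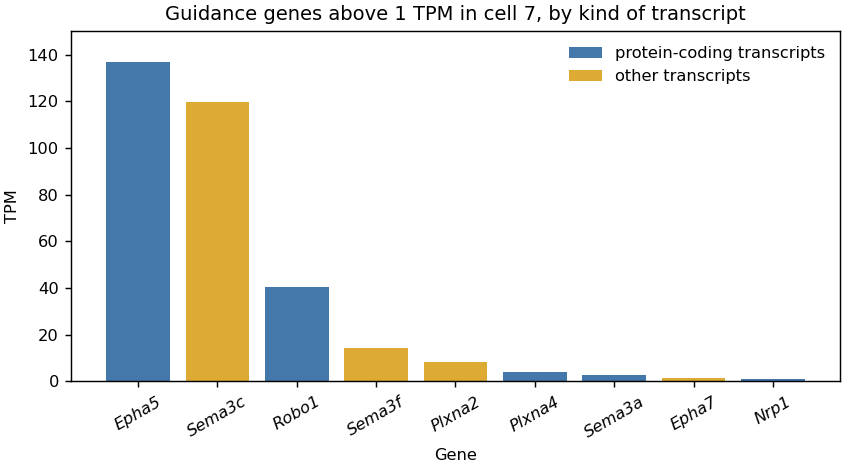
TPM of the 9 guidance genes above 1 TPM in cell 7, stacked by protein-coding transcripts (blue) and all other transcripts (yellow). Epha5 and Robo1 lie on coding transcripts, and Sema3c, Sema3f, Plxna2 and Epha7 on other transcripts.

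Neuropilins, the ligand-binding partners of plexins for class 3 semaphorins, were present in each cell. Nrp2 was at 12.3, 11.5, 18.2, 7.21, 0.290, 1.44 and 0.591 TPM in cells 1 to 7. Nrp1 was at 6.05, 0.189, 0.462, 0, 9.88, 2.28 and 1.20 TPM in cells 1 to 7. Nrp2 was the higher of the pair in TPM in cells 1 to 4, and Nrp1 in cells 5 to 7. In cell 6 Nrp1 had 19 counts, on a transcript of 2514 bases, and Nrp2 had 23 counts. The Nrp2 transcript that led also varied. It was 6673 bases long in cells 1 and 2, holding 91.7% and 86.3% of Nrp2 TPM, and 4696 bases long in cells 3, 4 and 6, holding 87.7% to 96.9%. Nrp2 lies on chromosome 1 (62703285 to 62818695, plus strand) of mm10.

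Of the 9 plexin genes, 7 were detected in at least 1 cell, against 55.5% of protein-coding genes, with 1 to 5 per cell. Plxna2, which encodes a receptor for class 6 semaphorins and a coreceptor for class 3, was detected in 6 cells. Its level was 21.4, 19.1, 3.74, 12.6, 9.36, 0.212 and 8.24 TPM in cells 1 to 7, lowest in cell 6. Its mean log2(TPM + 1) was 3.10 ± 1.45 (SD, n = 7 cells), and 2.62 ± 1.83 when coding transcripts alone were summed. The value of cell 7 lay to 99.7% on a retained-intron transcript, and on coding transcripts Plxna2 stood there at 0.0284 TPM. Of the 2650 bases of that retained-intron transcript, 470 (17.7%) are intronic to the coding transcript. Plxna1, also a partner of neuropilins, was at 0.0613, 28.4, 0.0421, 43.0, 12.1, 0 and 0 TPM in cells 1 to 7. Plxna3 was at 0, 27.7, 0, 0, 38.7, 4.90 and 0 TPM in cells 1 to 7. Cells 2 and 5 were high for both. Plxna4 passed 1 TPM in cells 2 and 7, with 15.4 and 4.21 TPM. On coding transcripts, Plxna2 was above 1 TPM in cells 1 to 5. The A-class plexin above 1 TPM on coding transcripts was Plxna3 in cell 6 and Plxna4 in cell 7. The B-class gene Plxnb2 was at 0, 7.44, 0, 0, 50.3, 0 and 0 TPM in cells 1 to 7. Plxnb1, a receptor of Sema4d, passed 1 TPM in cells 4 and 6, with 1.71 and 1.30 TPM, and Plxnc1, the receptor of Sema7a, in cell 5 with 2.55 TPM. Plxnb3, a plexin of oligodendrocytes, was at 0 in all 7 cells, where 3 counts would give 0.143 to 0.300 TPM. Plxnd1, the receptor of Sema3e, was at most 0.723 TPM.

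**Figure D5:**
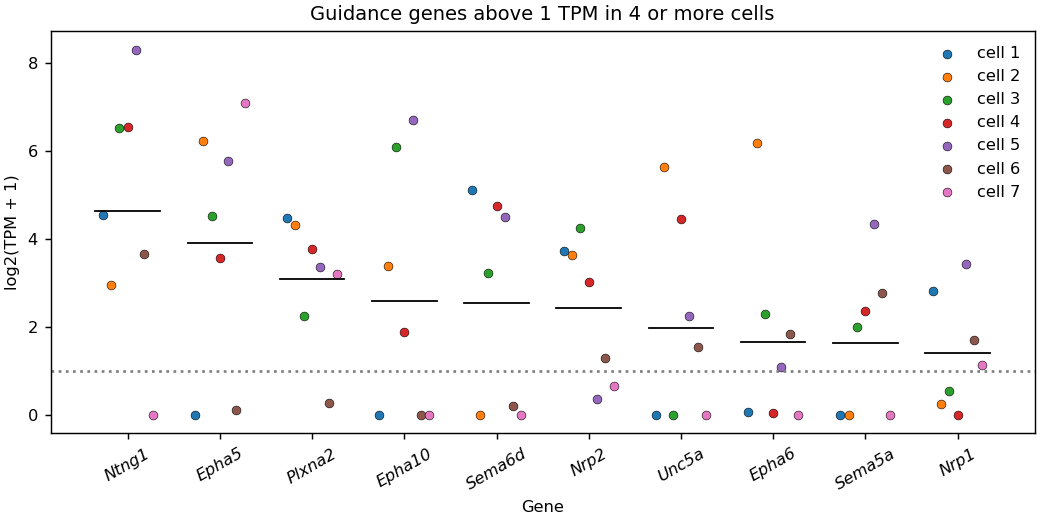
Level of the 10 guidance genes above 1 TPM in at least 4 of 7 cells, as log2(TPM + 1). Points are the 7 cells, black lines the means, and the dotted line marks 1 TPM. The cells span the range from 0 to over 8 for Ntng1, and Plxna2 is under 1 on this scale in cell 6 alone, its value in cell 7 lying on a retained-intron transcript.

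Eph receptors made up the largest receptor group, with 10 of 14 genes detected in at least 1 cell and 1 to 8 per cell. Among protein-coding genes, 55.5% were detected in at least 1 cell. The summed level of the Eph receptor genes in TPM was highest in cell 5, with 246 TPM, and lowest in cell 6, with 7.74. The last place depended on the scale. Cell 4 had 15.6 TPM, and its protein-coding share was 32.4%, against 13.1% for cell 6. Relative to protein-coding TPM, cell 4 was therefore below cell 6. Epha5, which encodes a receptor for A-class ephrins, was the leading member. Its level was 0, 73.8, 22.0, 10.9, 54.0, 0.0775 and 137 TPM in cells 1 to 7, so cell 7 was highest and cells 1 and 6 were below 1 TPM. In cell 7 the value rested on 2096 counts, with 100% of the TPM on coding transcripts. Epha5 lies on chromosome 5 (84054761 to 84417382, minus strand) of mm10.

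Epha10, whose protein lacks an active kinase, was at 0, 9.41, 67.8, 2.71, 104, 0 and 0 TPM in cells 1 to 7, highest in cells 3 and 5. In cells 3 and 5 all of it lay on a short transcript of 1236 bases, on 197 and 286 counts, while the longest of the 9 listed transcripts has 5186 bases. Epha6 was at 0.0492, 72.6, 3.96, 0.0379, 1.15, 2.61 and 0 TPM in cells 1 to 7, with cell 2 far above the others. Epha4, a receptor for both classes of ephrin, was at 0, 24.4, 2.60, 0, 17.0, 0.555 and 0 TPM in cells 1 to 7. Epha3 was at 0, 0, 2.35, 0, 46.2, 0 and 0 TPM in cells 1 to 7. Cells 2, 3 and 5 thus each had Epha4, Epha5, Epha6 and Epha10. Epha7 passed 1 TPM in cells 2 and 7, with 11.4 and 1.60 TPM, and Epha8 in cell 5, with 10.2 TPM.

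Of the 5 B-class Eph genes, 3 passed 1 TPM in at least 1 cell, against 55.5% of protein-coding genes. Ephb6, another member without kinase activity, was at 66.8, 0, 0, 1.16, 0, 0 and 0 TPM in cells 1 to 7. Apart from it, no Eph receptor gene passed 1 TPM in cell 1. In cells 5 and 6, Ephb2 reached 7.12 and 1.02 TPM, and Ephb1 reached 6.14 and 3.48 TPM. Epha1, Epha2, Ephb3 and Ephb4 were at 0 in all 7 cells.

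Ephrins, the ligands of these receptors, were detected in cells 1 to 6 and not in cell 7, where all 8 genes were listed at 0. Efna4 was at 39.4, 0.306, 16.5, 1.24, 0, 0 and 0 TPM in cells 1 to 7, the value of cell 4 resting on 3 counts. Efna3 was at 0, 46.8, 0, 0, 14.0, 0 and 0 TPM in cells 1 to 7. Efna4 was thus above 1 TPM in 3 cells and Efna3 in 2, none of them shared, and no background over other gene pairs was computed. Efnb2, a transmembrane ephrin gene, was at 0.0545, 0.182, 1.17, 9.15, 1.98, 0 and 0 TPM in cells 1 to 7. Efna2 reached 17.5 TPM in cell 5 and Efnb3 5.07 TPM in cell 6. Efna5 stayed at or below 1.69 TPM, and Efna1 and Efnb1 were at 0 throughout.

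Slit and Robo genes were sparse. Slit1 passed 1 TPM in cells 2 and 5, with 9.96 and 1.07 TPM, and Slit3 in cell 5, with 5.97 TPM. Slit2 was at most 0.305 TPM. Robo1 was at 2.04, 0.119, 0.0504, 0.0803, 4.98, 0 and 40.2 TPM in cells 1 to 7, with cell 7 high. Robo2 was at 0.0958, 0.427, 1.16, 0, 27.7, 0.574 and 0.456 TPM in cells 1 to 7, with cell 5 high. The commissural gene Robo3 and the endothelial gene Robo4 were at 0 in all 7 cells.

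Of 32 pairs of a ligand and a known receptor for it, listed after the values had been seen, 21 were both above 1 TPM in at least 1 cell and 11 in none. No background over other gene pairs was computed, so these numbers describe the listed pairs only. The 11 were Sema3e with Plxnd1, Sema3f with Nrp2, Sema4d with Plxnb1, Sema6a with Plxna4, Efna5 with Epha3, Slit2 with Robo1 and Robo2, and Ntn1 with Dcc, Neo1, Unc5a and Unc5c. Sema6b and Plxna2 were both above 1 TPM in cells 2, 4 and 5, which were all the cells with Sema6b. Plxna2 itself was above 1 TPM in 6 of the 7 cells. Sema6d and Plxna1 were together in cells 4 and 5, and Sema5a and Plxna3 in cells 5 and 6. Efna3 and Epha5 were together in cells 2 and 5, and Efna4 and Epha5 in cells 3 and 4. Sema3c was with Nrp2 in cell 2 and with Nrp1 in cell 7, where coding transcripts of Sema3c were at 0. Slit1 was with Robo1 and Robo2 in cell 5 alone.

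Genes that act inside the cell downstream of these receptors were also examined. Of 53 listed signalling genes, 29 (54.7%) were above 1 TPM in at least 4 of 7 cells, against 19.1% of protein-coding genes, and 1, Mical1, was at 0 throughout. Without cell 2 the number was 19 (35.8%), against 12.4% of protein-coding genes. Cfl1, which encodes the actin-severing protein cofilin, was at 268, 486, 426, 289.9, 188, 99.2 and 1328 TPM in cells 1 to 7. Dpysl2, whose product CRMP2 carries semaphorin signals to microtubules, was at 127, 20.1, 40.9, 54.1, 14.5, 65.5 and 78.2 TPM in cells 1 to 7. Both were thus above 10 TPM in each cell. Gap43, a growth-cone protein gene, was at 4.17 to 216 TPM, and Gsk3b, a kinase gene, at 2.86 to 50.5 TPM. Cdc42 and Rac1, which encode small GTPases that drive actin growth, were listed at 0 in cell 1 and passed 1 TPM in each of the other 6 cells. Chn1, which encodes a Rac-inhibiting protein downstream of Epha4, was at 0.176 TPM in cell 1 and 20.1 to 234 TPM in the others. The kinase gene Cdk5 was at 0 in cell 7 and 9.18 to 286 TPM in the others. Mical2, which encodes an actin-oxidising enzyme, was above 1 TPM in 6 cells. Evl, which encodes an actin-elongation factor, was above 1 TPM in 5 cells.

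Of 26 listed membrane partners and other guidance molecules, 6 (23.1%) were above 1 TPM in at least 4 of 7 cells, against 19.1% of protein-coding genes, and the count was 3 (11.5%) without cell 2 or without cell 6. The protein-coding share was 12.4% without cell 2, near that of the list, and 16.0% without cell 6. At 0 TPM the list stood at 53.8% against 31.0%, and at 10 TPM at 0% against 9.06%. Its place beside protein-coding genes thus varied with the setting. L1cam, whose product joins neuropilin-1 in semaphorin receptors, was at 36.1, 8.01, 6.06, 4.87, 0.994, 0.277 and 62.7 TPM in cells 1 to 7. Nrcam, the counterpart for neuropilin-2, was at 14.7, 79.2, 2.83, 1.12, 21.2, 0.866 and 0.823 TPM in cells 1 to 7. Cells 1 to 4 had both of these genes above 1 TPM. Lrrc4b, which encodes netrin-G ligand 3, was above 1 TPM in 7 of 7 cells, at 1.38 to 15.8 TPM. Lingo1 and Flrt1 were above 1 TPM in 4 cells each, with 32.3 and 17.0 TPM in cell 5. Chl1, a relative of L1cam, was at 0.224, 42.7, 0, 0, 5.35, 5.86 and 0.0393 TPM in cells 1 to 7.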

How the data were processed

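Each deposited table lists transcripts of 1 cell. Per the file headers, the authors deposited an estimated count and a TPM value for each transcript, beside its length and effective length. Complementary DNA was made with SMART-Seq v4 and libraries with Nextera XT, per the labels' protocols. STAR (version 2.5.2a), kallisto and the mm10 build appear in the submitters' processing notes, and what each did is not given in the sources used.

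TPM and estimated counts were summed per symbol in Python 3.11.15 (pandas 2.3.3). Symbols turned into dates were looked up by accession (122 of 157 in cells 1 to 6, 81 of 81 in cell 7). Rows left unnamed held at most 0.0362% of TPM. Protein-coding genes are those of GENCODE M21 named in all 7 tables. Coding transcripts are NM and XM entries of RefSeq, and GENCODE's type in cell 7. A gene was called detected above 1 TPM, and log values are log2(TPM + 1). For a gene at 0, the TPM that 3 counts would give was computed from the median effective length of its transcripts, which covers counting error only since amplified reads are not independent molecules. The libraries are treated as keeping no strand, and exons of 14 detected guidance genes overlap another gene, among them Efna3 (14.1% of exonic bases), Plxna1 (10.7%) and Efna4 (10.5%). Such overlap was not computed for other protein-coding genes.

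Members above 1 TPM in at least 3 cells or at 20 TPM or more in any cell have their values by cell in the text. From the signalling and partner lists, the 10 and 6 genes with the highest mean log2 value are named, with Mical1 and Lrrc4c added after their values were seen. Members and lists were chosen with earlier results of these data known. The detection count was checked on simulated data. Alternatives were other thresholds, pseudocounts and scales, the highest transcript, scaled counts and leaving out each cell. Coding transcripts alone were added after the data were seen.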

Additional observations from a re-analysis of the deposited data

Results flagged for a closer look

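On the log2 scale, 6 of 31 values had 1 cell set apart by a wide gap from all others. The rule picks out about 1 in 20 normally spread values by chance, a share that does not hold for genes chosen for a high level in any cell with most cells near 0. Among the guidance genes given by cell, 5 of 26 (19.2%) stood apart, against 21.2% of the 8394 protein-coding genes chosen by the same levels, so the share is near the background. Epha3 stood apart at 46.2 TPM in cell 5, Epha6 at 72.6 TPM in cell 2, Ephb6 at 66.8 TPM in cell 1, Robo2 at 27.7 TPM in cell 5 and Sema4f at 46.9 TPM in cell 2. The next highest cells were at 2.35, 3.96, 1.16, 1.16 and 0.155 TPM for the same genes. The guidance share of protein-coding TPM stood apart in cell 5, at 0.268% against at most 0.108%. On the scale of the shared protein-coding genes, Ephb6, Robo2 and Sema4f still stood apart, and Epha3 and Epha6 did not.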

How the results depend on the processing

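At a threshold of 0 TPM, 27 guidance genes were detected in at least 4 cells and 14 in none. Medians per cell were 25 genes, 13 ligands and 15 receptors. Of the partner genes, 14 (53.8%) were detected in at least 4 cells, against 31.0% of protein-coding genes. At 10 TPM the guidance numbers, in the same order, were 2, 43, 6, 2 and 3. In at least 4 cells were then 2.78% of guidance genes, 12 signalling genes (22.6%) and 0 partner genes, against 9.06% of protein-coding genes. The share of guidance genes in at least 4 cells was 37.5% at 0 TPM, against 31.0% of protein-coding genes, so its place relative to them turned round there. Rescaled over the shared protein-coding genes, the median summed level was 763 in place of 268 TPM. With at least 3 counts scaled to the smallest library, 14 guidance genes (19.4%) and 10 partner genes (38.5%) were in at least 4 cells. The protein-coding share was 21.4%, near that of the guidance genes. Leaving out each cell with the cutoff kept at 4, guidance genes in at least 4 cells numbered 4 to 9 (5.56% to 12.5%). Signalling genes numbered 19 to 28 (35.8% to 52.8%) and partner genes 3 to 6 (11.5% to 23.1%). The protein-coding share was 12.4% to 16.8%. Guidance genes in no cell numbered 23 to 27. Medians per cell ran from 14.5 to 16.5 genes, 6.5 to 8.5 ligands and 8 to 8.5 receptors. The median summed level ran from 257 to 300.4 TPM. The highest transcript and coding transcripts alone moved none of these 8 results beyond the spread between cells or by over 1.5 times. Of 26 mean log2 levels, a pseudocount of 0.1 moved 6 and one of 10 moved 14 by more than the SD between cells. No paired analysis was possible because the cells form 1 group. Depth and the lengths of the listed transcripts both limit the 0 values, since 3 counts would give up to 2.12 TPM for Sema4d.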
